A study of Mus musculus with 2 samples.

Results

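Type 2 innate lymphoid cells (ILC2) of the mouse gingiva were described in 2 single-cell libraries. The members were chosen from their own counts of unique molecular identifiers (UMIs), each UMI being 1 captured transcript. A member had 500 or more UMIs and 200 or more detected genes, and no more than 15% of its UMIs were mitochondrial. S100a8 and S100a9 together took under 3% of its UMIs, C1qa, C1qb and C1qc gave at most 2 UMIs, and Cd79a, Cd3e, Cd3d, Cpa3 and Mcpt4 gave none. Ncr1 and Klrb1c together gave under 2 UMIs. Gata3 gave at least 1 UMI, and Il1rl1, Il13 and Il5 together gave at least 2. This rule found 103 of the 21208 quality-passing cells, 84 of 10948 in the normoglycemic library and 19 of 10260 in the diabetic library. Gata3, Il1rl1, Il13, Il5 and the genes required to be low chose the members, so their values are given only as a description.

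Both libraries came from gingiva of mice labelled CD11CCre-/-;FoxoLL on a mixed C57B6 - FVB background, which carry loxP sites around exon 2 of Foxo1 and no Cre, and whose Foxo1 protein the submitters describe as normal. The normoglycemic group and the group made diabetic with streptozotocin, a toxin of insulin-producing cells used as a model of type I diabetes, both had bacteria-induced inflammation for 2 weeks and then a waiting period of 2 weeks. Each library was 1 pool of 4 mice, with no replicate pool. Living CD45+ cells without CD31 or Ter-119 were sorted with a 20% enrichment of CD11c+CD45+ cells, and 10000 cells were loaded per Chromium 3' lane. The sort therefore fixed part of the cell mixture, and the sex and age of the mice were not given in the labels used here.

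ILC2 are tissue-resident lymphocytes that carry no rearranged antigen receptor. They depend on the transcription factors GATA3 and ROR alpha, and they are activated by epithelial alarmins such as interleukin 33, which binds the receptor encoded by Il1rl1. Activated ILC2 release interleukins 5 and 13, which act on eosinophils, epithelium and macrophages, and also amphiregulin (Areg), an epidermal growth factor receptor ligand involved in tissue repair. At barrier surfaces they have been linked to both repair and type 2 inflammation.

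The promoter sequences of the 3 type 2 genes of the rule are printed from the reference genome, so they show nothing particular to the members. They are the 250 bases before the RefSeq start site, 5′ to 3′ on the gene's strand in build GRCm38.p6. Capitals mark 4 spellings of the motif that GATA factors are known to bind, searched on both strands. They are AGATAA, the same with G as the last letter (AGATAG), the same with T as the first (TGATAA), and the one with both changes (TGATAG). Il13 lies at chr11:53634703-53634952 on the minus strand, Il5 at chr11:53720544-53720793 on the plus strand and Il1rl1, for its first start site, at chr1:40429320-40429569 on the plus strand.
Il13: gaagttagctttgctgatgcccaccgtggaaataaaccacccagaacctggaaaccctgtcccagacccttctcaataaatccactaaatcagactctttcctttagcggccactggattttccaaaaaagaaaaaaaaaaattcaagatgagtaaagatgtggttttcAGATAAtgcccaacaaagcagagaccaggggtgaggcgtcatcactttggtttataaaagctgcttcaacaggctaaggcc
Il5: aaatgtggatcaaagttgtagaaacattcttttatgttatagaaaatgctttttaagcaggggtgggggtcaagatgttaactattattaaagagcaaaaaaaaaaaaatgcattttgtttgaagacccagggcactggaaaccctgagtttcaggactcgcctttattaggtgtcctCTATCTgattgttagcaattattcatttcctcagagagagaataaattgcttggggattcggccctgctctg
Il1rl1: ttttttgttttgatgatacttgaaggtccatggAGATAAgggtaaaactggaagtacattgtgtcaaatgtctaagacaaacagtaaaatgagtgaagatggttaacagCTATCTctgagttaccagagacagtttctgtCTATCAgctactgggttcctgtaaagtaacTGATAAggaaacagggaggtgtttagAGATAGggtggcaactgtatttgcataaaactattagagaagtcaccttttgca
The Il13 window held 1 such match, beginning 81 bases before the start site, and the Il5 window held 1, beginning 72 bases before it. The Il1rl1 window held 5, between 217 and 54 bases before the start. Of 32851 RefSeq promoter windows of the same length, 26.5% held at least 1 match, so a single match is common. Gata3 itself and Areg had none in this window, which says only that these letters were not there. The matches describe the sequence and are no evidence of binding in these cells.

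The normoglycemic library held 11280 barcodes and the diabetic library 10496, with medians of 5302.5 and 4631.5 UMIs in quality-passing cells. The members had a median of 6547.5 UMIs in the normoglycemic library (1119 to 25016) and 6928 in the diabetic library (3202 to 14465), and medians of 2014.5 and 1843 detected genes. Summed, they gave 610603 and 134564 UMIs, and the deepest member alone held 4.10% and 10.75% of them. The libraries shared 32 barcodes, none of them in a member. With 1 pool per group there was no replicate and no test, and every 95% interval below covers counting error only.

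Gata3 was found at 1 to 22 UMIs per normoglycemic member (median 4.5) and 1 to 32 per diabetic member (median 4). Il1rl1 was present in 67 of 84 and 16 of 19 members, Il13 in 42 and 7, and Il5 in 39 and 5. Scaled to 1000000 UMIs of the members (CPM), Il13 stood at 640.4 in the normoglycemic and 594.5 in the diabetic members, but 3 cells held 116 of 391 and 59 of 80 of its UMIs. Il13 and Il5 were both found in 25 normoglycemic and 2 diabetic members, and 28 and 9 members had neither and entered through Il1rl1 alone. The rest of the sort had almost no Il13 (1.596 and 1.055 CPM) or Il5 (0.3283 and 0.03858 CPM). Il1rl1 was not restricted in that way, since mast cells, chosen by Cpa3 and Mcpt4, reached 3290 and 2143 CPM against 691.1 and 460.7 in the members.

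At the edge of the rule, 14 normoglycemic and 3 diabetic members had exactly 2 UMIs of Il1rl1, Il13 and Il5, and 13 and 2 cells just outside had Gata3 with 1 such UMI. Rora, which the rule did not use, was detected in 92.86% and 100% of the members at the edge (13 of 14 and 3 of 3). In the cells just outside it was detected in 76.92% and 0% (10 of 13 and 0 of 2). The 2 diabetic cells outside had a median of 1431 UMIs, against 5300 in the 3 diabetic members at the edge. Il7r was at 100% and 100% inside and 92.31% and 100% just outside. With so few cells, no line at the edge is read from either gene. A further 138 normoglycemic and 75 diabetic cells had 2 or more type 2 UMIs but no Gata3. Rora was detected in only 15.22% and 41.33% of those, at medians of 18317 and 20114 UMIs per cell. Before the lineage limits, 180 and 31 cells carried Gata3 with 2 type 2 UMIs. The Cd3e and Cd3d limit removed 76 and 9 of them, called type 2 T cells here, and the limits on S100a8 and S100a9, C1q genes and Cd79a removed 20 and 3. The name type 2 T cells refers to the rule only. Il1rl1 was in 68 and 9 of them, Il13 in 11 and 1, Il5 in 2 and 0 and Ctla4 in 64 and 6. Foxp3, a regulatory T cell marker, was present in that gate too, and which kinds of T cell it held was not tested.

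**Figure D1:**
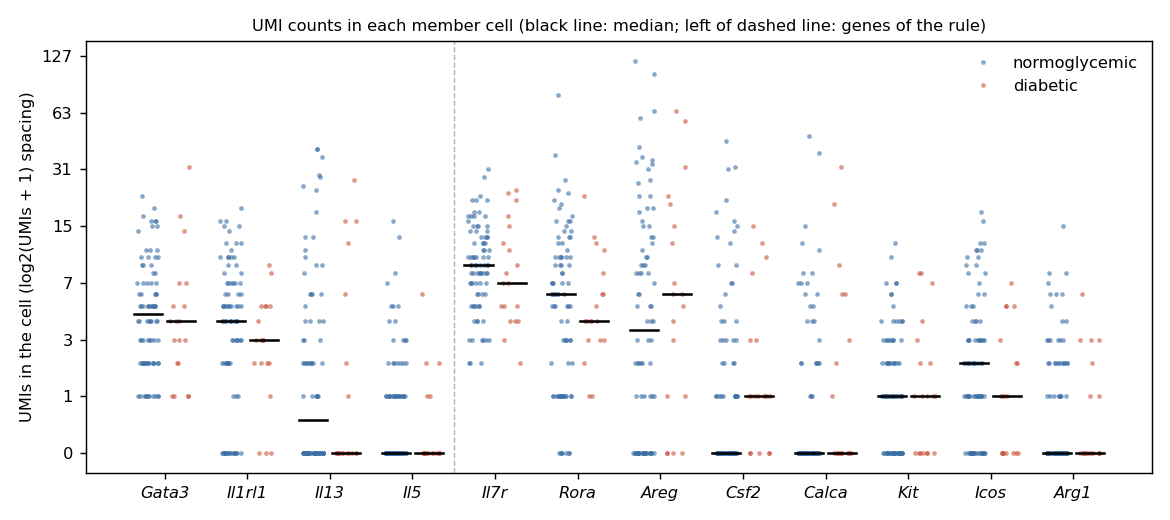
UMI counts of 12 genes in each of the 84 normoglycemic (blue) and 19 diabetic (red) member cells, on a log2(UMIs + 1) axis, with the median as a black line. Il7r was above 0 in all members of both libraries, whereas Il13, Il5, Csf2 and Calca were at 0 in many members and reached 16 to 47 UMIs in single normoglycemic members.

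Genes of ILC2 that the rule did not use were high in the members, several of them in type 2 T cells as well. Il7r, the receptor chain for interleukin 7 on which ILC2 survival depends, was detected in all 84 and all 19 members (2, 9 and 31 UMIs as lowest, median and highest, and 2, 7 and 24). Its level was 1390 and 1382 CPM against 165.2 and 96.8 in all other cells and 1123 and 1982 in type 2 T cells. Rora was in 77 of 84 and 19 of 19 members, at 1141 and 862 CPM against 78.75 and 45.5 in all other cells and 1255 and 414.9 in type 2 T cells. Il7r and Rora thus set the members apart from most of the sort, not from type 2 T cells. Ptprc, which encodes CD45, the antigen of the sort, was in 79 and 18 members.

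Id2, which blocks the B and T cell programme in innate lymphoid precursors, stood at 1243 and 914.1 CPM, below the 1839 and 1637 CPM of type 2 T cells. Kit, a stem cell factor receptor, stood at 250.6 and 289.8 CPM, above the 73.06 and 46.1 CPM of type 2 T cells and below the 1190 and 1432 CPM of mast cells, and Il2ra, the high-affinity interleukin 2 receptor chain, at 474.9 and 445.9 CPM. Klrg1, an inhibitory receptor of mature ILC2, was in only 29 and 6 members, and Il17rb, the interleukin 25 receptor, in 11 and 2. Arg1, an arginine-degrading enzyme, was in 35 and 7 members, but its level in all other cells was 188.3 and 387.6 CPM against 191.6 and 141.2 in the members. Nmur1, a neuropeptide receptor of ILC2 in other tissues, gave 0 UMIs in both libraries, which allows a share of up to 3.57% and 15.8% of members with a UMI, taken as 3 cells of the total. Ptgdr2, the prostaglandin D2 receptor, was in 2 and 1 members.

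Free RNA could give single UMIs to any cell, so the same genes were read in B cells (272 and 149 cells, medians of 4594 and 4446 UMIs). There Il7r was in 6 and 4 cells, Rora in 5 and 1, Areg in 3 and 0, Csf2 in 1 and 0, Calca in 1 and 0 and Kit in 2 and 0. Arg1 was in 5 and 14 of the B cells. After every cell was thinned to 1000 UMIs, 75% and 73.7% of members kept an Il7r UMI and 61.9% and 63.2% a Rora UMI, against at most 1.11% and 1.34% of B cells for either gene.

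T cell markers divided into those at 0 and those present. Foxp3 gave no UMI in the members against 402.9 and 161.4 CPM in the type 2 T cells. Trac gave 6 and 1 UMIs in all members (9.826 and 7.431 CPM), against 732.7 and 345.8 CPM in type 2 T cells. Cd5, Cd6, Cd4 and Cd8a gave at most 2 UMIs each. Trbc1, by contrast, stood at 614.1 and 535.1 CPM in the members, near the 607.5 and 438 CPM of the type 2 T cells and the 557.6 and 381.9 CPM of the natural killer gate. Trbc2 (339 and 319.6 CPM) and Cd3g (157.2 and 148.6 CPM) were also present. The 18 T cell markers summed to 1434.6 and 1263.3 CPM, above the 598 and 269 CPM of other cells. Transcripts of the unrearranged beta chain gene are known in innate lymphocytes, and the 3' reads do not show rearrangement. A rule that also demanded 0 UMIs of Trac, Trbc1, Trbc2 and Cd3g left 1 member per library.

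Many defining markers of the other candidate cell types were at 0. Eomes, Tbx21, Ifng, Gzma, Gzmb and Prf1 of natural killer and type 1 cells gave 0 UMIs in both libraries, and Ccl5 gave 6.551 and 0 CPM against 7068 and 7071 in the natural killer gate. Nkg7, a cytotoxic granule gene, was nevertheless at 93.35 and 215.5 CPM (ratio 2.31, 1.42 to 3.67) and Klrk1, an activating receptor, at 68.78 and 89.18 CPM. The 19 natural killer and type 1 markers summed to 201 and 342 CPM (1.70, 1.18 to 2.4), against 392 and 379 CPM in other cells, with 14 and 15 of the 19 at 0. Fcer1a, Gata2, Cma1, Tpsb2 and Mcpt8 of mast cells and basophils gave 0, beside Cpa3, Mcpt4 and Ncr1, which the rule limits. Il23r, a receptor of type 3 cells, gave 0 UMIs. Il22, a type 3 cytokine, was nevertheless at 183.4 and 96.61 CPM, in 11 and 1 members, and Il17a came from 2 normoglycemic members, 25 of its 26 UMIs from 1 of them. The 13 type 3 and type 17 markers summed to 1544.4 and 1471.4 CPM, above the 693 and 688 CPM of other cells. Of these 13, 3 and 6 were at 0. Of the myeloid lists, summed levels in the members were 1837.5 and 520 CPM for 12 neutrophil markers, 1107.1 and 438 CPM for 16 macrophage markers and 177 and 14.9 CPM for 10 dendritic cell markers.

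Those myeloid UMIs sat in few cells. In 9 of the 84 normoglycemic members and none of the 19 diabetic members, 1% or more of the UMIs (1.162% to 6.024%) came from these markers and class II genes. The other 75 normoglycemic members had at most 0.438% and the diabetic members at most 0.3637%. The 9 cells were deep, with a median of 14989 UMIs against 6477 in the 75. Without them the summed neutrophil markers stood at 673 and 520 CPM, macrophage markers at 324 and 438 CPM and dendritic cell markers at 20.3 and 14.9 CPM. The 9 cells were chosen by these markers, so the fall follows from that choice. Calls and directions that change without these 9 cells are given with and without them for many of the genes and lists below, not for all. No doublet caller was run, and whether the 9 barcodes held more than 1 cell was not tested.

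**Figure D2:**
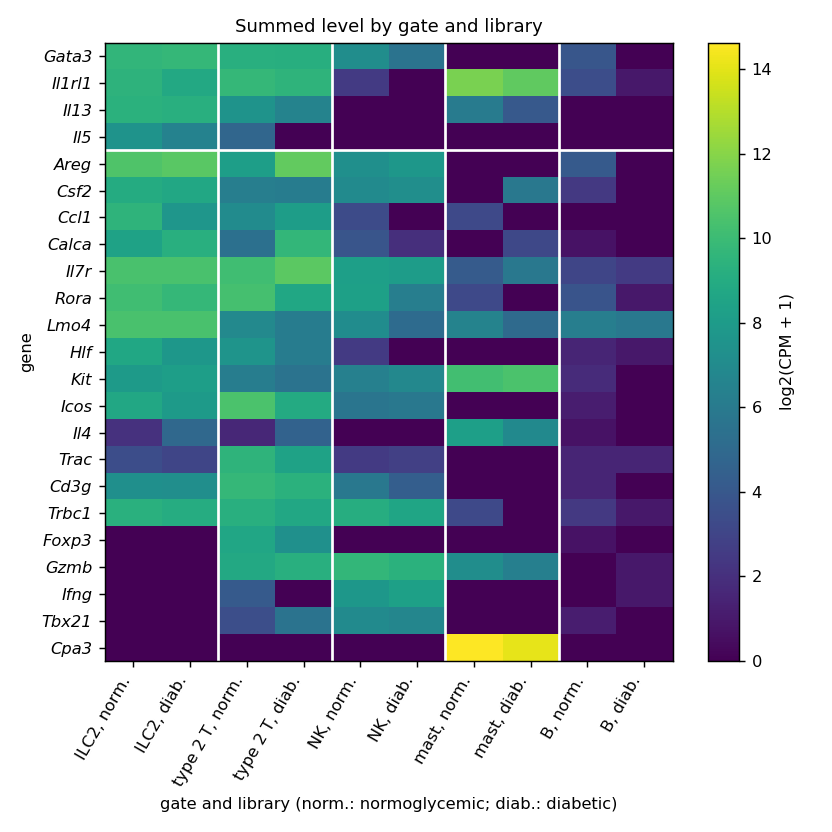
Summed levels, as log2(CPM + 1) in colour, of 23 genes (rows) in 5 gates by library (columns). The ILC2 columns share high Il7r with the type 2 T cells, lack Foxp3, Gzmb and Ifng, and hold the highest Csf2 and Lmo4 of the gates shown. The rule itself sets Gata3, Il1rl1, Il13, Il5 and Cpa3.

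Among genes outside the rule with at least 100 CPM in the members of both libraries, the 20 with the largest excess over all other cells in both libraries were ranked by the smaller of the 2 folds. Ccl1, a chemokine that recruits CCR8-bearing cells, led with 733.7 and 208.1 CPM against 1.71 and 0.4244 elsewhere. Type 2 T cells had Ccl1 at 131.5 and 276.6 CPM, from 63 and 12 UMIs. The diabetic value lay above the members but came from a gate of 9 cells, so no order is read from it. Csf2, which encodes GM-CSF, a growth factor of granulocytes and macrophages, followed with 499.5 and 438.5 CPM, 202.3-fold and 206.5-fold above other cells. Csf2 in the type 2 T cells was 75.15 and 69.15 CPM. Calca, which encodes calcitonin gene-related peptide, a neuropeptide that acts on ILC2, reached 347.2 and 587.1 CPM against 4.936 and 2.225. In type 2 T cells Calca was at 41.75 and 806.8 CPM. The diabetic value, again above the members, rested on 35 UMIs in 2 of 9 cells, so no order is read from it either. Bmp2, a secreted growth factor of the bone morphogenetic protein family, reached 327.5 and 282.4 CPM against 3.68 and 9.169 elsewhere, with 22.96 and 23.05 CPM in type 2 T cells and none in the natural killer gate. Secreted factors thus made up several of the genes highest over other cells.

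The same list held Hlf, a PAR family transcription factor (425.8 and 215.5 CPM against 10.56 and 7.395 elsewhere). Type 2 T cells had Hlf at 192.1 and 69.15 CPM, from 92 and 3 UMIs. Tcrg-C4, a constant segment of the T cell receptor gamma locus, was at 140.8 and 104 CPM against 14.61 and 23.05 in type 2 T cells. Ccdc184, Mmp16, Hs3st1, Dyrk3, Tespa1, Rnf128, Ptpn13, Zcchc10, Inpp4b, Kit, Areg and Ctla2a were also on it. Lmo4, a LIM domain cofactor outside these 20, separated the members from the type 2 T cells at 1349 and 1390 CPM against 119 and 69.15.

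ILC2 made up 0.767% of quality-passing cells in the normoglycemic library (exact 95% interval 0.612% to 0.949%) and 0.185% in the diabetic library (0.112% to 0.289%). The difference was -0.582 percentage points (Newcombe interval -0.776 to -0.402) and the ratio 0.241 (0.138 to 0.401). Among lymphoid gates only, the shares were 6.21% (84 of 1352) and 2.81% (19 of 677), a ratio of 0.452 (0.259 to 0.75). Without the 9 members rich in myeloid UMIs the ratio over all cells was 0.27.

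Other lymphoid gates were also smaller in the diabetic library. T cells stood at 8.61% and 4.58% (ratio 0.532, 0.475 to 0.595) and B cells at 2.48% and 1.45% (0.585, 0.475 to 0.716). Type 2 T cells stood at 0.694% and 0.0877% (76 and 9 cells, ratio 0.126, 0.0557 to 0.253). Natural killer and type 1 cells were at 0.484% and 0.38%, where the interval of the ratio (0.506 to 1.21) held 1, and mast cells went the other way, from 0.292% to 0.507% (1.73, 1.1 to 2.78). The intervals of the ratios of ILC2 and of all T cells did not overlap, while those of ILC2 and type 2 T cells did. Cells past the neutrophil limit were 45.8% and 45.5%. With 1 pool per group, a difference between pools of mice or sorts cannot be told apart from diabetes.

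**Figure D3:**
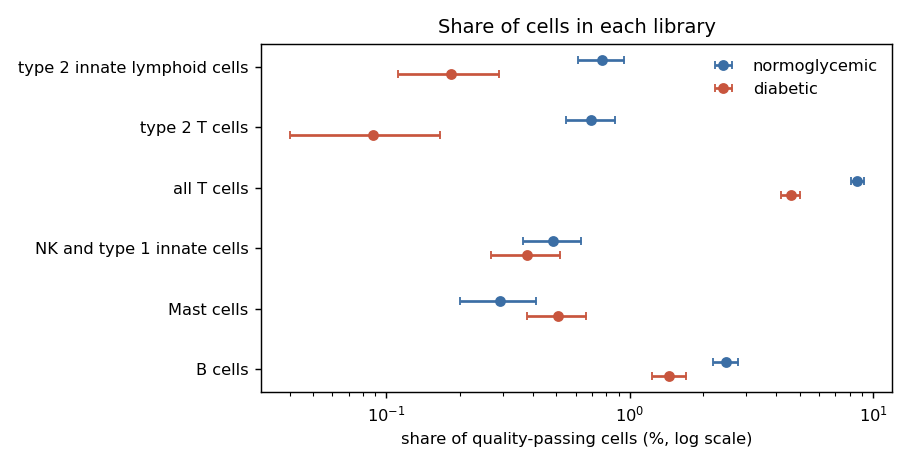
Share of quality-passing cells (percent, log axis) in each gate, with exact 95% intervals, for the normoglycemic (blue) and diabetic (red) library. The ILC2 and type 2 T cell gates, at 0.767% and 0.694% in the normoglycemic library, stood at 0.185% and 0.0877% in the diabetic library. The mast cell gate was the only one shown that was higher there.

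Transcripts of Xist and of Y-linked genes showed that both pools mixed female and male mice. Of the members with a call, 47 of 64 were female in the normoglycemic library (73.4%, 60.9% to 83.7%) and 7 of 13 in the diabetic library (53.8%, 25.1% to 80.8%). All other cells were 21.8% and 31.8% female. Within cells called female the diabetic over normoglycemic ratio of the ILC2 share was 0.123 (0.0468 to 0.273), and within cells called male 0.474 (0.153 to 1.26). The share was therefore lower in the diabetic library in both, with an interval that held 1 among male cells. The calls need a UMI of these genes and leave many cells uncalled.

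The transcripts of the members were compared over 4292 genes with at least 20 UMIs in both libraries together. The median log2 ratio of diabetic over normoglycemic members was -0.03 (quartiles -0.45 and 0.35), with 0.5 counts added. Past 1.5-fold, 635 genes (14.8%) were higher and 884 (20.6%) lower in the diabetic members. Of these, 164 (3.82%) and 227 (5.29%) also had an exact counting interval of the ratio that did not hold 1. These shares are the background for the counts of listed genes. Without the 9 myeloid-rich members, 3704 genes were tested. Then 527 (14.2%) were higher and 643 (17.4%) lower, 167 (4.51%) and 152 (4.1%) with intervals, so lower calls with an interval no longer outnumbered higher ones. The calls were 41.9% higher genes under scaling to total UMIs and 53.1% (215 higher, 190 lower) under TMM scaling. The median tested gene had 8 UMIs in the diabetic members, so a 1.5-fold difference was often not detectable at this depth.

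Of the genes meeting the naming rule (at least 100 CPM in the higher library and an interval beyond 1.5-fold), 30 were higher and 14 lower, and 12 of each are shown. On the lower side Ifi27l2a, an interferon-induced gene, had the lowest ratio, with 340.6 CPM in 30 of 84 normoglycemic members (at most 34 UMIs in 1 cell) and 14.86 CPM in 2 of 19 diabetic members with 1 UMI each. The ratio was 0.0436 (0.00525 to 0.16). All other cells had Ifi27l2a at 484.8 and 487.9 CPM, and type 2 T cells had 2551 and 899 CPM. It was also lower in the diabetic library in all T cells (827.9 and 444.6 CPM), natural killer cells (146.7 and 51.3) and B cells (335 and 192.4). Mast cells had 8.501 and 55.99 CPM, from 1 and 7 UMIs. The other 11 were Arl4c, Mfge8, Ccl1, Nr4a2, Gm20186, Malt1, Plscr1, Lgals3, Klf4, Plod2 and Psmb7, with ratios from 0.143 to 0.426. Ccl1, Gm20186, Arl4c, Malt1, Mfge8, Nr4a2 and Klf4 were lower in all other diabetic cells too, with ratios of 0.248 to 0.774 there. Ifi27l2a, Plscr1, Lgals3, Plod2 and Psmb7 had ratios of 1.007 to 3.069 there. One normoglycemic cell held 83 of the 116 UMIs of Mfge8. Without the 9 myeloid-rich members its ratio was 0.506 (0.129 to 1.44), an interval that held 1.

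Malt1, a protease that carries antigen and cytokine receptor signals to NF-kappa B, stood at 208 CPM in 48 normoglycemic members and 52.02 CPM in 6 diabetic ones (ratio 0.25, 0.0986 to 0.531). Nr4a2, an orphan nuclear receptor induced by activation, stood at 278.4 and 66.88 CPM (0.24, 0.108 to 0.467). Lgals3, the lectin galectin 3, stood at 645.3 and 275 CPM (0.426, 0.296 to 0.598) while other cells had 1131 and 1224 CPM. Klf4, a zinc finger transcription factor, stood at 314.4 and 118.9 CPM (0.378, 0.212 to 0.63), but in cells called female its log2 ratio was 0.46. Psmb7 and Plod2, a proteasome subunit and a collagen-modifying enzyme, each gave 87 and 5 UMIs.

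On the higher side, most named genes were higher in the other diabetic cells too. Gm42418 (10099.9 and 20577.6 CPM) and Gm10076 (244 and 758 CPM) stood in all other cells at 7797 and 19185.5 CPM and at 143 and 478 CPM. Sytl3, which acts in vesicle docking, stood at 45.86 CPM in 18 of 84 members and 163.5 CPM in 11 of 19 (ratio 3.57, 1.94 to 6.46), while other cells had 11.14 and 7.806 CPM. The other 9 were Hist1h2ap, Hist1h2ae, Hist1h4d, Hist1h1b, Hist1h1e, Stmn1, Rrm2, Pclaf and AW011738, of which the first 5 encode histones, with ratios of 2.80 to 5.23 in all other cells, and Stmn1, Rrm2 and Pclaf are raised in dividing cells. AW011738 stood at 16.38 and 133.8 CPM.

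**Figure D4:**
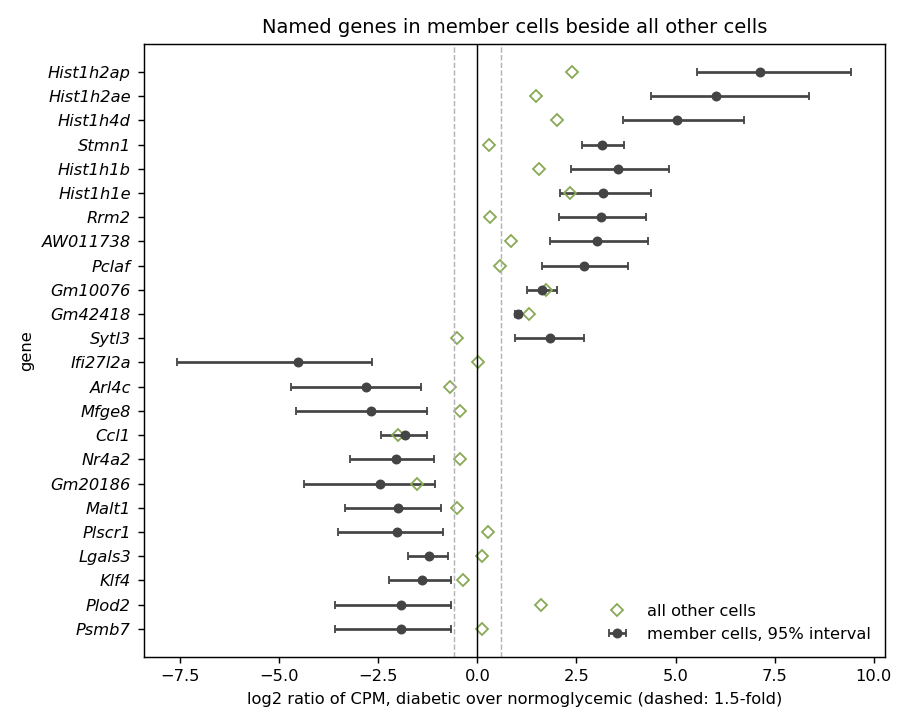
Log2 ratio of CPM, diabetic over normoglycemic, for the 24 named genes in the members (black, exact 95% counting interval) and in all other quality-passing cells (green diamonds), with 1.5-fold as dashed lines. Gm10076 and Gm42418 lie near the other cells' values, whereas Ifi27l2a lies far below them. In the T, natural killer and B cell gates, not drawn separately here, Ifi27l2a was also lower in the diabetic library.

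The proliferation genes came from few members. Stmn1 gave 47 UMIs in 8 normoglycemic members and 92 in 3 diabetic ones (ratio 8.88, 6.18 to 12.9). Hist1h2ap gave 3 and 93 UMIs, 75 of them in 1 diabetic cell. Of 24 cell cycle genes, 10 or more UMIs were found in 4 of 84 (4.76%, 1.31% to 11.7%) and 3 of 19 members (15.8%, 3.38% to 39.6%), intervals that overlap. The 3 diabetic cells were all called male and held 198 of the 217 cell cycle UMIs of the diabetic members. Within cells called female the median log2 ratio of the cell cycle list was -0.84, and without the members with 10 or more such UMIs it was -0.45, against 0.99 over 18 tested genes in all members. Stmn1 then had a log2 ratio of -1.21. Histone transcripts were higher across the diabetic library, with Hist1h2ap at 16.42 and 85.87 CPM in all other cells, 65.08 and 212.8 in T cells, 20.79 and 161.6 in B cells and 106.1 and 829.4 in the natural killer gate.

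Among effector genes, Areg was the most abundant, in 57 of 84 members (0, 3.5 and 119 UMIs as lowest, median and highest) and 15 of 19 (0, 6 and 64). Its level was 1561 and 1895 CPM (ratio 1.21, 1.05 to 1.4), under the 1.5-fold limit, and 1.09 (0.946 to 1.26) without the 9 myeloid-rich members. In type 2 T cells Areg was at 288.1 CPM in 76 normoglycemic and 2213 CPM in 9 diabetic cells. Of the 255 Areg UMIs of the diabetic members, 3 cells held 153, and after thinning the share of members with Areg was 47.6% and 42.1%. No order between the libraries is read from Areg.

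Csf2 was found in 39 of 84 (0, 0 and 44 UMIs) and 14 of 19 members (0, 1 and 15), at 499.5 and 438.5 CPM (0.878, 0.653 to 1.16). The share of members with a UMI, 46.4% and 73.7%, went against that level and came to 21.4% and 21.1% after thinning to 1000 UMIs, so no order is read from it. Calca was found in 27 and 8 members (0, 0 and 47 UMIs, and 0, 0 and 32), at 347.2 and 587.1 CPM (1.69, 1.29 to 2.2), but 3 diabetic cells held 61 of its 79 UMIs. Its log2 ratio was 2.83 in cells called female and -2.60 in cells called male, 7 and 6 diabetic cells. Ramp3, a subunit of receptors for this peptide family, stood at 299.7 and 460.7 CPM (1.54, 1.13 to 2.06) and Ramp1, the other, at 296.4 and 304.7 CPM.

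Il5 stood at 183.4 and 89.18 CPM and Il13 at 640.4 and 594.5 CPM, both genes of the rule. Of 16 tested effector genes outside the rule, 1 was higher (Calca) and 6 were lower past 1.5-fold, with intervals for 1 and 3, and the list's median log2 ratio was -0.19 against -0.03 over all genes. Tnfsf11, which encodes the osteoclast factor RANKL, stood at 91.71 CPM in 28 and 29.73 CPM in 3 members (0.324, 0.0853 to 0.877). Il22 and Il17a, described above, were the other lower genes with an interval, Il17a resting on 1 cell. Lif, Il2 and Bmp2, a cytokine of the interleukin 6 family, a T cell growth factor and a morphogen, had intervals that held 1 (149 and 193.2, 209.6 and 208.1, and 327.5 and 282.4 CPM). Il4 gave 2 and 4 UMIs, Il9 2 and 0, and Il6 3 and 8, all from 1 or 2 cells per library, and Il10 and Ifng gave 0 in the members of both libraries.

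Members with Il13 or Il5 were set beside the members without within each library, as a description of cells that share a pool. The split uses genes of the rule, and all members without Il13 or Il5 entered through Il1rl1 alone. Members with and without numbered 56 and 28 in the normoglycemic and 10 and 9 in the diabetic library, with the 9 myeloid-rich members kept in. Those with were deeper (medians of 7030 and 4673.5 UMIs, and 8094 and 5300), so part of any difference can follow from the split. Areg stood at 1832 CPM in cytokine-bearing and 685.7 in other normoglycemic members (2.67, 2.17 to 3.32), and at 2692 and 633.5 CPM in diabetic ones (4.25, 2.94 to 6.33). The 3 diabetic cells with most Areg all had Il13 or Il5 and held 153 of the 222 Areg UMIs of that side. Lif stood at 188.8 and 20.78 CPM, and 303.1 and 19.2, with only 3 and 1 UMIs in the members without. Furin, a proprotein convertase, stood at 1656 and 838.1 CPM, and 1370 and 710.3. For these 3 genes, named out of a longer list, the cells with Il13 or Il5 had the higher level in both libraries.

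Il7r went the other way, at 1238 CPM in cytokine-bearing and 1884 in other normoglycemic members (0.657, 0.568 to 0.762), while the interval of the diabetic members, at 1249 and 1593 CPM, held 1. Calca took opposite sides, with 392.5 CPM in cytokine-bearing and 200.9 in other normoglycemic members (1.95, 1.32 to 3) and 169.8 and 1248 CPM in diabetic ones (0.136, 0.0705 to 0.245). Csf2 was at 566.3 and 284 CPM in the normoglycemic members (1.99, 1.43 to 2.84) and at 388 and 518.3 CPM in the diabetic ones, where the interval held 1. Whether these patterns differ between the libraries beyond single cells was not tested.

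Of 40 signature genes of ILC2 outside the rule, 33 were tested. Of these, 1 was higher and 9 were lower past 1.5-fold, 1 and 6 with intervals, and the median log2 ratio was -0.22. Without the 9 myeloid-rich members the counts were 1 and 9, with intervals for 1 and 7, of 32 tested. Icos, a costimulatory receptor of ILC2, stood at 438.9 and 245.2 CPM (0, 2 and 18 UMIs in normoglycemic, 0, 1 and 7 in diabetic members, ratio 0.559, 0.377 to 0.804). Hlf stood at 425.8 and 215.5 CPM (0.506, 0.332 to 0.744), and Bcl11b, a factor of ILC2 development, at 214.5 and 89.18 CPM (0.416, 0.209 to 0.751). Il18r1, the interleukin 18 receptor, stood at 209.6 and 118.9 CPM (0.567, 0.315 to 0.957), and Ptpn13, a phosphatase, at 206.4 and 118.9 CPM (0.576, 0.32 to 0.973). Ccl1 stood at 733.7 CPM in 24 members, up to 132 UMIs in 1 cell, and 208.1 CPM in 4 (0.284, 0.186 to 0.416), with a log2 ratio of 0.56 in cells called male.

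Several core genes of the signature differed little. Il7r, Lmo4, Samsn1, Ets1, Il2ra, Cxcr6 and Thy1 of the signature had ratios from 0.907 to 1.04, each with an interval that held 1. Rora (0.755, 0.615 to 0.92), Id2 (0.735, 0.603 to 0.891), Furin (0.762, 0.637 to 0.907) and Ly6a (0.721, 0.572 to 0.9) were lower by less than 1.5-fold. Without the 9 cells Ly6a was past the fold (0.649, 0.514 to 0.811). By sex call the signature's median log2 ratio was 0.27 in female and -1 in male cells, so its direction changed with the sex call.

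Of 30 tested lymphoid transcription factors other than Gata3, 1 was higher and 13 were lower past 1.5-fold, 0 and 10 with intervals, and the median log2 ratio was -0.42. Without the 9 myeloid-rich members 1 was higher and 11 lower of 30 with Gata3 counted, 1 and 8 with intervals. Nfkb1, a subunit of NF-kappa B, stood at 864.7 and 527.6 CPM (0.61, 0.469 to 0.783), whereas Gata3 stood at 791 and 862 CPM and Ets1 at 836.9 and 780.3. Of 25 tested cytokine receptors other than Il1rl1, 2 were higher and 7 lower past the fold, 0 and 3 with intervals: Icos, Il18r1 and Cd28, a costimulatory receptor with 26 and 0 UMIs. Leaving out the 9 cells gave 1 higher and 6 lower of 24 with Il1rl1 counted, 0 and 4 with intervals. Ifngr1, the interferon gamma receptor, stood at 309.5 and 431 CPM (1.39, 1.02 to 1.88) and Il2rg, the common gamma chain, at 414.3 and 423.6. Of 14 tested lipid, neuropeptide and hormone receptors, 1 was higher (Ramp3) and 3 were lower, among them Gpr183, an oxysterol receptor that guides ILC migration (615.8 and 401.3 CPM, 0.652, 0.481 to 0.869). Without the 9 cells 0 were higher, with Ramp3 at 1.47 (1.07 to 1.98), and 3 lower, 2 with intervals. Nr3c1, the glucocorticoid receptor, stood at 504.4 and 490.5 CPM.

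Activation and feedback genes were mixed. Of 29 tested immediate early and stress genes, 1 was higher and 8 lower past the fold, 1 and 5 with intervals, and without the 9 cells 4 were higher and 6 lower of 28, 3 and 4 with intervals. Junb, an AP-1 subunit, stood at 2977 and 2668 CPM, and Jund, another, at 1877 and 2787 (1.49, 1.32 to 1.67). Of 26 tested inhibitory receptors and feedback regulators, 3 were higher and 8 lower, 1 and 2 with intervals. Leaving out the 9 cells gave 3 higher and 7 lower of 24, 2 and 2 with intervals. Rgcc, a cell cycle regulator also induced by activation, stood at 789.4 and 1546 CPM (1.96, 1.66 to 2.31) with other cells' ratio at 0.909, and Nfkbia, the NF-kappa B inhibitor, at 2321 and 3314 CPM (1.43, 1.28 to 1.59), or 1.60 (1.43 to 1.79) and past the fold without the 9 cells. Ctla2a, a cysteine protease inhibitor among the genes highest over other cells, stood at 1910 CPM in 77 and 3723 CPM in 18 members (1.95, 1.75 to 2.17), while other cells had 87.5 and 54. Of its 501 UMIs in the diabetic members, 123 sat in 1 cell. Ctla2a was not restricted to the members. It stood at 1467 and 1405 CPM in natural killer, 1129 and 1314 in type 2 T, 969.1 and 527.9 in mast and 671.9 and 272.5 in all T cells.

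Genes of insulin and FOXO signalling are of interest in diabetic mice. Of 24 tested, 3 were higher and 5 lower past 1.5-fold, 1 and 1 with intervals, and the median log2 ratio was 0.02. Leaving out the 9 myeloid-rich members gave 3 higher and 4 lower of 22, 1 and 1 with intervals. Irs2, an insulin receptor substrate and FOXO target, stood at 329.2 and 483 CPM in 54 and 18 members (1.47, 1.09 to 1.95). Tsc22d3, a target of glucocorticoids and FOXO factors, stood at 311.2 and 178.4 CPM (0.573, 0.358 to 0.879). Cdkn1b, Pik3r1 and Txnip had intervals that held 1. Foxo1, the floxed gene, gave 29 and 3 UMIs (47.49 and 22.29 CPM). Of 15 tested genes of glucose uptake and glycolysis none had an interval past the fold, and Gapdh (886 and 862 CPM), Ldha (617.4 and 720.8) and Aldoa (493 and 512.8) had intervals that held 1. Without the 9 myeloid-rich members 1 of 12 had an interval past the fold, on the higher side.

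Survival genes split. Mcl1 and Bcl2 had intervals that held 1 (358.7 and 304.7 CPM, and 173.6 and 215.5 CPM). Mcl1 stood at 263 and 305 CPM without the 9 cells, again with an interval that held 1. Bcl2a1b stood at 176.9 and 386.4 CPM (2.19, 1.54 to 3.07) and Bcl2a1d at 183.4 and 74.31 (0.405, 0.189 to 0.773). Bcl2a1b and Bcl2a1d are near-identical copies between which reads can be divided, so both values are uncertain. Of 29 tested residency and adhesion genes, 0 were higher and 7 lower, 0 and 6 with intervals. Leaving out the 9 cells gave 0 higher and 5 lower of 27, 0 and 4 with intervals. S100a6 and S100a4, calcium-binding proteins of motile cells, stood at 3896 and 2571 CPM (0.66, 0.588 to 0.739) and 3072 and 1947 CPM (0.634, 0.555 to 0.722), whereas Vim, an intermediate filament, stood at 2992 and 3158.

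Chemokine and class II results moved with the 9 myeloid-rich members. Of 11 tested chemokines 10 were lower in all members, and without the 9 cells 4 of 6, with an interval only for Ccl1. Cxcl2, a neutrophil attractant, went from 1931 and 788 CPM (0.408, 0.331 to 0.498) to 659 and 788 CPM (1.2, 0.951 to 1.49), which turned its direction. Cd74, the class II invariant chain, went from 2429 and 118.9 CPM to 122 and 119 CPM. Cd74, H2-Aa, H2-Ab1 and H2-Eb1 were among the genes that chose the 9 cells. Their fall without these cells therefore follows from that choice and is no separate result. Of 15 tested antigen presentation genes 1 was higher and 10 lower in all members, and 0 and 4 of 11, none with an interval, without the 9. H2-D1 and B2m of class I, detected in all members, stood at 5306 and 4630 CPM and 2696 and 2482 CPM in all members.

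Among interferon-stimulated genes, more were lower than higher with and without these cells. Of 17 tested, 1 was higher and 10 were lower in all members, 1 and 6 with intervals, with a median log2 ratio of -0.76. Without the 9 cells, 2 were higher and 10 lower of 16, 0 and 6 with intervals, with a median of -0.79. Ifi27l2a then stood at 351 and 14.9 CPM, Slfn2, a regulator of lymphocyte quiescence, at 304 and 149 CPM (0.489, 0.29 to 0.782), Ifi203 at 191 and 74.3 CPM (0.39, 0.181 to 0.75) and Ifitm3, an antiviral membrane protein, at 120 and 44.6 CPM (0.373, 0.132 to 0.861).

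**Figure D5:**
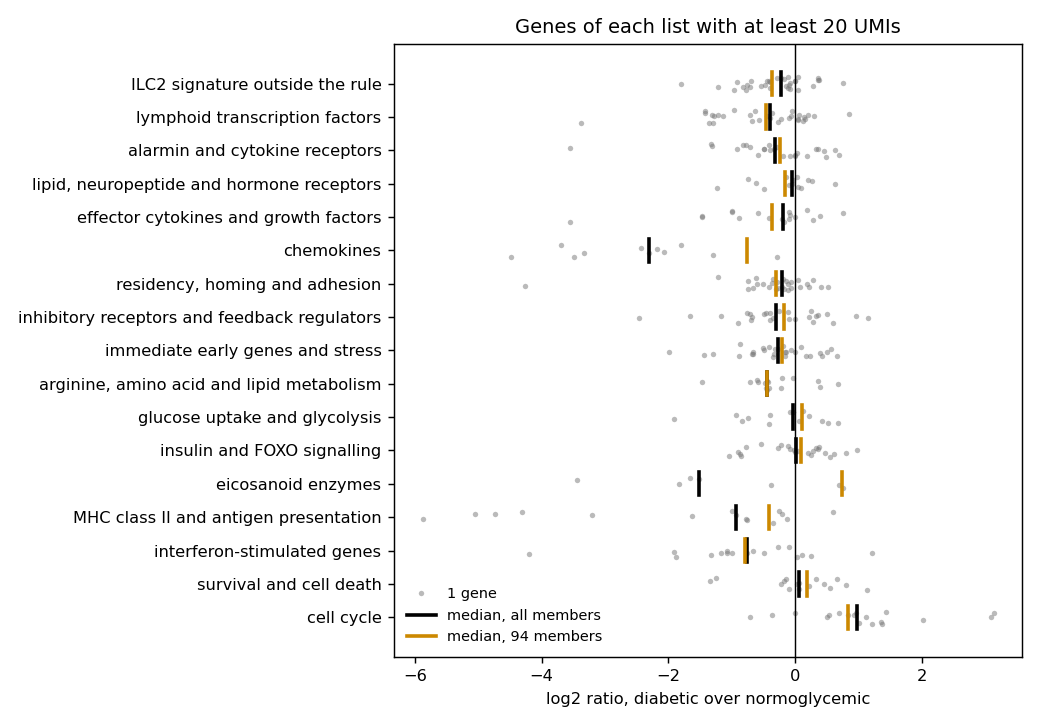
Log2 ratio, diabetic over normoglycemic members, of each gene with at least 20 UMIs (grey points) in 17 lists, with the median in all 103 members (black) and in the 94 members without the 9 myeloid-rich cells (orange). The medians of the chemokine, class II and eicosanoid lists move between the 2 marks, and that of the interferon list goes from -0.76 to -0.79. Class II genes were among those that chose the 9 cells.

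The type 2 cytokine cluster lies on mouse chromosome 11 between positions 53602982 and 54267277 (GRCm38), with 13 protein-coding genes in the GENCODE annotation. Its transcripts in the members were uneven. Il13 (53631324 to 53634702), Il5 (53720794 to 53725106) and Csf2 (54247271 to 54249667) were high, and Il4 (53602982 to 53618669), next to Il13, stood at 3.275 and 29.73 CPM. The rule itself used Il13 and Il5, so their height over the other genes of the cluster follows from how the members were chosen. Csf2 was not used. Mast cells, which were not chosen by these genes, had Il4 at 306 and 120 CPM and Il13 at 68.01 and 16 CPM. Rad50, the DNA repair gene between Il13 and Il5 that holds control elements of the cluster, stood at 81.89 CPM in 33 and 208.1 CPM in 14 members, against 18.53 and 25.22 in other cells. Il3, the outermost gene of the interval, gave 0 UMIs in the members and in all other cells of both libraries, and Slc22a4, Slc22a5, Slc22a21 and Pdlim4 gave 0 or 1 UMI each in the members.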

How the data were processed

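Cells of gingiva from 1 normoglycemic and 1 diabetic pool of 4 mice were measured as UMI counts per gene and barcode. The authors deposited filtered matrices of unnormalized counts made with Cell Ranger, on mm10. The version is 4.0.0 per the file headers, whereas the submitters' processing notes name 6.0.2. Filtered matrices can hold free RNA and doublets, and no doublet caller was run. Both matrices list 32285 genes. The 4 antibody features, which the files do not name by antigen, were kept apart.

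Members were found by the rule given in the text. The members and the 29 gene lists were chosen with earlier results of these data known. Counts were summed over members per library and scaled to counts per 1000000 member UMIs (CPM). Ratios have exact conditional binomial intervals, shares exact Clopper-Pearson intervals and differences of shares Newcombe intervals, all at 95% and for counting error only, since PCR-amplified UMIs from 1 pool carry no replicate error. Log2 ratios had 0.5 counts added. Genes with at least 20 UMIs over both libraries were tested for a fold of 1.5, and no p-value was computed.

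Named genes were all genes of the signature, effector and receptor lists, up to 6 of each other list by level, up to 12 per direction past 1.5-fold by the interval with at least 100 CPM and at least 0.5 times the level of other cells, and the 20 highest over other cells among genes with at least 100 CPM in the members of both libraries and in at least 20% of them. A count of 0 was given an upper limit of 3 counts of the total. Cd5, Cd6, Bcl2a1d, Foxo1, Rad50 and the cell type markers were added after their values were seen. Cells with a UMI of Xist and none of the Y-linked genes were called female, and the reverse male. The natural killer gate needed at least 2 UMIs of Ncr1 and Klrb1c, the mast cell gate 2 of Cpa3 and Mcpt4 and the B cell gate 2 of Cd79a. Thinning drew 1000 UMIs per cell. Sequences and start sites were from RefSeq (GRCm38.p6), and 32158 of 32285 gene IDs matched the GENCODE annotation. The 9 members with 1% or more myeloid UMIs, the cell cycle, Trac and Trdc, class II, type 2 T cell and sex splits of the share were alternatives chosen after seeing the data. Python 3.11.15, numpy 2.4.6, scipy 1.17.1, pandas 2.3.3, matplotlib 3.10.9 and, for TMM factors, R 4.3.3 with edgeR 4.0.16 were used. The scripts were tested on simulated data. Some genes that met the naming rule or stood on a list are not reported here.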

Additional observations from a re-analysis of the deposited data

How the results depend on the processing

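No paired analysis was possible because each group had 1 library, made from 1 pool of mice. Over all results and settings tried, 52 comparison values stayed within their limits, 18 moved and 1 reversed, and among single genes and lists 729, 90 and 12. The ratio of ILC2 shares, 0.241, was 0.452 when no Gata3 UMI was needed (222 and 94 cells), 0.452 of the lymphoid gates, 0.0713 after thinning to 1000 UMIs before the rule (30 and 2 cells), 0.123 in cells called female and 0.474 in cells called male. It was 1.07 when no T cell receptor or Cd3g UMI was allowed, with 1 cell per library, and the gene comparison was not made there.

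Genes past 1.5-fold were 1178 higher and 1544 lower with at least 10 counts, and 177 and 297 with at least 50, of which 102 and 151 had intervals; fewer or more genes were tested there. Without the cell with most UMIs of each gene, 277 were higher past the fold, 59 with intervals, and without the tenth of members with most UMIs 140 were lower with intervals. Cells called male gave 252 higher and 349 lower past the fold, and cells called female 540 lower, 107 with intervals; the cause of these moves was not tested.

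Log2 ratios reversed in cells called male for Mfge8 (0.0576), Ccl1 (0.56) and Calca (-2.60), and in cells called female for Stmn1 (-2.85), Hist1h1b (-1.31), Hist1h1e (-1.46), Rrm2 (-1.46), AW011738 (-0.77), Pclaf (-1.82) and Klf4 (0.46). Cd74 was at 0.017 without members with 10 or more class II UMIs, and Stmn1 at -1.21 without members with 10 or more cell cycle UMIs. Cd74 was itself among the class II genes counted for that split. Of the 24 named genes, 15 kept their direction under all 15 alternatives.

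The depth of 19 diabetic members limits all ratios of low genes, and a gene at 0 in them allows a share of up to 15.8% of cells with a UMI, taken as 3 cells of the total.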

Other observations

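The matrices also held 4 antibody features that the files do not tie to an antigen or a mouse. The highest count of any of them in a member was 3245 in the normoglycemic and 982 in the diabetic library, in 1 cell each. The next highest members had 12 and 5, and the medians of the highest feature per member were 4 and 2. They were used in no comparison.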
